A study of Mus musculus with 2 samples.

Results

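The genes described here encode subunits of the phagocyte NADPH oxidase and the mitochondrial manganese superoxide dismutase. They are *Cybb*, *Cyba*, *Ncf1*, *Ncf4*, *Rac2* and *Sod2*, taken by symbol from the gene list of the files, and all 6 were found among the 32285 genes measured. They were measured by single-cell RNA sequencing of blood neutrophils in 2 libraries, 1 from wild-type (WT) C57BL/6J mice and 1 from APP/PS1 transgenic mice, which carry human Alzheimer's disease transgenes and deposit amyloid in the brain. Mice of both genotypes were female and 7 months old and received no treatment. Cells of 3 mice were pooled per library, and neutrophils were enriched by removing other blood cells with antibodies. With 1 pooled library per genotype there was no replicate, so no difference between genotypes could be tested. Genotype and library cannot be told apart, and each interval below is an exact 95% interval for counting error alone.

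The oxidase moves electrons from cytosolic NADPH across a membrane to oxygen and so makes superoxide, which phagocytes use to kill microbes. *Cybb* encodes its catalytic subunit and *Cyba* the smaller partner that keeps that subunit stable in the membrane. *Ncf1* and *Ncf4* encode organisers that wait in the cytosol and on activation dock on the membrane pair together with the GTPase encoded by *Rac2*. In neutrophils much of the membrane pair is stored in secondary (specific) granules, which are filled while the cell matures in the bone marrow. *Sod2* encodes the enzyme that turns superoxide into hydrogen peroxide in mitochondria, and it is a well known target of inflammatory signalling.

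Before filtering there were 17123 WT and 17645 APP/PS1 cells, with medians of 3345 and 3115 unique molecular identifiers (UMIs) per cell, of which 14564 and 15208 cells passed the filters. Marker genes named 7588 WT and 9589 APP/PS1 cells as neutrophils, which were 52.1% and 63.05% of the kept cells. The others were mainly classical monocytes (2461 and 1756 cells) and nonclassical monocytes (2964 and 1976 cells), so the libraries held much more than the labelled cell type. All cell type names were rebuilt from marker genes, so each stands for cells like that type. *S100a9*, a defining neutrophil gene, stood at 94830 and 81910 CPM (the share of all UMIs, scaled to 1e6) in neutrophils and at up to 24550 CPM elsewhere. In all, 83 barcodes occurred in both libraries, 63 of them among the kept cells. Levels below are in these units, from the UMIs of a gene and of all genes summed over the cells of 1 kind in a library. They come from 3′ tags and are not scaled by length, so they are compared between cells and not between genes.

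*Cybb* was the member whose level differed most between cell types, and blood neutrophils were not where it was high. Its level in nonclassical monocytes was 2525 CPM in WT, with an interval of 2499 to 2551, and 2583 CPM in APP/PS1 (2551 to 2616). In classical monocytes it was 2059 CPM in WT and 2143 in APP/PS1. In neutrophils it was 144 CPM in WT (139 to 149) and 145 CPM in APP/PS1 (141 to 150), 14.3-fold and 14.8-fold below classical monocytes. B cells, at 468 and 426 CPM, stood between the monocytes and all other cells, and NK cells had the lowest levels, 39.6 and 31.5 CPM, though in APP/PS1 the 43 basophils at 36.8 CPM were not separated from them. In each library the order from nonclassical monocytes to classical monocytes to B cells was clear of the intervals, whereas T cells, plasma cells, neutrophils and basophils changed places between the libraries.

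*Cyba* differed little between the phagocytes. Neutrophils held 1348 CPM in WT (1333 to 1363) and 1438 CPM in APP/PS1 (1424 to 1452), nonclassical monocytes 1360 and 1479, and classical monocytes 1300 and 1330. In WT the intervals of neutrophils and nonclassical monocytes overlapped. NK cells followed with 1087 and 1137 CPM, T cells with 827 and 868, and B cells with 788 and 823. Erythroid cells were lowest, at 438 and 604 CPM, and 57.4% and 64.3% of that level would be reached if all their *S100a8* and *S100a9* UMIs were free RNA of neutrophils from the same library. The level of *Cyba* thus differed less between cells than that of its catalytic partner.

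Of the cytosolic organisers, *Ncf1* was highest in neutrophils and basophils. *Ncf1* stood at 408 CPM in WT neutrophils (400 to 417) and 413 in APP/PS1 neutrophils (406 to 420), 2.37-fold and 2.42-fold above classical monocytes. Basophils, few in number at 73 and 43 cells, reached 410 and 386 CPM and did not differ from neutrophils beyond the intervals. Both kinds of monocyte held between 170.5 and 173.9 CPM, and their intervals overlapped. In NK cells, at 39.6 and 61.6 CPM, free neutrophil RNA alone would give 43.3 and 47.6 CPM, so the WT level was not above what free RNA would give.

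*Ncf4* was highest in neutrophils too, but by less, and it was low in basophils (60.5 and 73.6 CPM). The level was 245 CPM in WT neutrophils (238 to 251) against 199 in classical and 220 in nonclassical monocytes, and 349 CPM in APP/PS1 neutrophils (342 to 355) against 252 and 270. The ratio of neutrophils to classical monocytes was 1.23 in WT and 1.38 in APP/PS1. Levels in lymphocytes were lower, from 69.8 CPM in WT T cells to 163.5 CPM in APP/PS1 B cells. The APP/PS1 value was the higher one in each of the 9 cell types. The intervals of the libraries overlapped narrowly in T cells, and also in B cells, basophils and plasma cells, the last 2 with fewer than 50 cells in a library.

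*Rac2*, the GTPase of blood cells, was highest in neutrophils and in NK cells. Neutrophils held 1139 CPM in WT (1125 to 1153) and 1210 CPM in APP/PS1 (1197 to 1223), and NK cells held 1008 and 1001. T cells, at 793 and 830 CPM, also stood above the monocytes. Classical monocytes held 434 and 418 CPM, so that neutrophils were 2.62-fold and 2.89-fold above them. Across these cells *Rac2* tended to be low where *Cybb* was high, with a Pearson r of -0.656 over 18 points (9 cell types in 2 libraries, which share library and depth).

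*Sod2* was high in monocytes and low in neutrophils and erythroid cells. WT neutrophils held 25.5 CPM (23.4 to 27.7) and APP/PS1 neutrophils 37.2 (35.0 to 39.4). Nonclassical monocytes held 146 and 170 CPM and classical monocytes 97.6 and 103. NK cells, T cells and B cells lay between 67.25 and 82.7 CPM, and neighbours among them were not separated by their intervals. WT neutrophils had the lowest level of the 9 cell types, but their interval overlapped those of WT erythroid cells (24.1 to 40.5) and basophils (26.0 to 71.6). APP/PS1 erythroid cells (34.2 CPM), basophils and plasma cells were slightly lower than APP/PS1 neutrophils, with overlapping intervals. Set against classical monocytes, neutrophils were 3.82-fold lower in WT and 2.78-fold lower in APP/PS1.

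**Figure D1:**
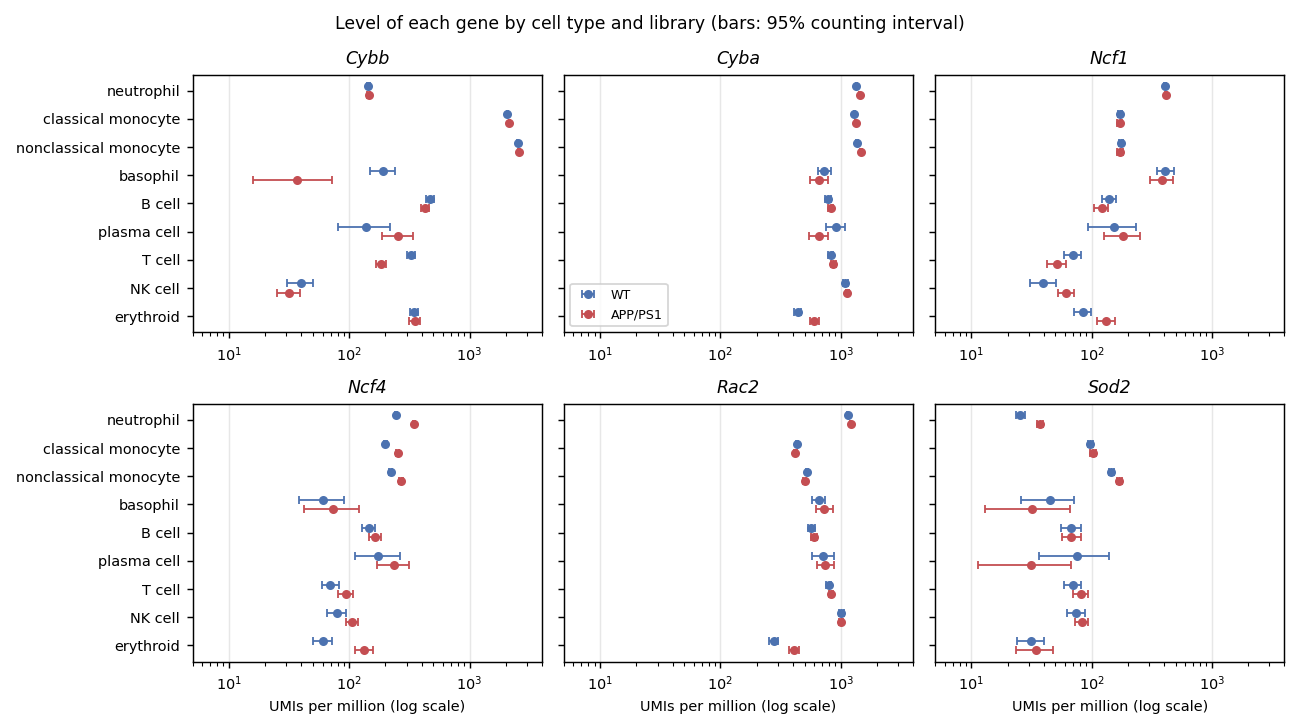
Level of each gene (x axis, CPM, log scale) in 9 cell types of the WT (blue) and APP/PS1 (red) library; points are sums over cells and bars are 95% counting intervals. *Cybb* spans from 31.5 CPM in NK cells to 2583 in nonclassical monocytes and *Cyba* only from 438 to 1479. *Sod2* is lowest in WT neutrophils at 25.5, with an interval that overlaps those of WT erythroid cells and basophils.

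Across neutrophils and classical monocytes, *Cybb* and *Sod2* were over 1 log2 lower in neutrophils in both libraries and *Ncf1* and *Rac2* over 1 log2 higher, while *Cyba* and *Ncf4* were within 1 log2. Of all genes with at least 100 UMIs, 55.8% in WT and 52.9% in APP/PS1 differed that much between these cells, so 4 of 6 members was not far from the share of all genes.

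The share of cells with a UMI followed the levels. After each cell was thinned to 1000 UMIs, 71.9% of WT and 74.6% of APP/PS1 neutrophils had a UMI of *Cyba*, and 67.0% and 68.8% one of *Rac2*. For *Ncf1* the shares were 31.7% and 32.2%, and for *Ncf4* 21.5% and 28.2%. Each of these was above the share in erythroid cells, taken as cells that should lack these genes, which held 30.4% and 50% for *Cyba*, 20% and 37.1% for *Rac2*, 6.92% and 12.1% for *Ncf1* and 5.77% and 10.0% for *Ncf4*. In APP/PS1, 2 neutrophils had fewer than 1000 UMIs and were left out. *Cybb* was the exception, with 8.94% of WT neutrophils (8.30% to 9.60%) and 7.45% of APP/PS1 neutrophils (6.93% to 7.99%) against 17.7% and 17.9% of erythroid cells. Erythroid cells held more monocyte RNA than neutrophils, with *Ccr2* at 86.4 and 40.3 CPM against 12.4 and 8.79 and *Ace* at 56.9 and 47.3 CPM against 6.75 and 5.63, so they give no background for *Cybb* in neutrophils. *Sod2* was found in 2.41% and 3.48% of neutrophils against 1.92% and 2.86% of erythroid cells, with overlapping intervals. As *Sod2* was also higher in monocytes than in neutrophils, erythroid cells give no background for it either. Monocyte RNA, as judged by *Ccr2* and *Ace*, would give 9.34% of the *Sod2* level in WT neutrophils and 5.77% in APP/PS1 neutrophils. Without thinning, the neutrophil shares were 19.7% and 16.9% for *Cybb* and 6.42% and 9.40% for *Sod2*, at median depths of 2553 and 2703 UMIs, and erythroid cells had median depths of 7461.5 and 7515 UMIs.

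The 4 promoter windows held in the reference are printed here because their genes split by level between cells: *Cybb* and *Sod2* are low in neutrophils, *Ncf1* is high there, and *Cyba* is level across phagocytes. Sequences and starts are from RefSeq on GRCm38.p6, the assembly that mm10 names, and run 5′ to 3′ on the strand of the gene up to the base before the start, except that of *Sod2*, which stops earlier. Capitals mark matches, on either strand, to 3 motifs. These were the ETS core GAGGAA of the kind that PU.1 binds, the box CCAAT, and the GC box with the letters GGGCGG. Among 32851 windows of 250 bases before RefSeq starts, 23.2% held the ETS core, 33.8% the CCAAT box and 32.7% the GC box. The *Cybb* window, on chrX:9469325-9469574 (minus strand), had 34.0% G and C, and 3.87% of all windows had less.
Cybb: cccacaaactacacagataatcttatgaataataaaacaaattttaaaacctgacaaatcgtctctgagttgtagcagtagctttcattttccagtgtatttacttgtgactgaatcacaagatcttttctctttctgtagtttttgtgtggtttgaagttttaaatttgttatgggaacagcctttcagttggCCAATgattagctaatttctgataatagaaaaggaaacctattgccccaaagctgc
Ncf1: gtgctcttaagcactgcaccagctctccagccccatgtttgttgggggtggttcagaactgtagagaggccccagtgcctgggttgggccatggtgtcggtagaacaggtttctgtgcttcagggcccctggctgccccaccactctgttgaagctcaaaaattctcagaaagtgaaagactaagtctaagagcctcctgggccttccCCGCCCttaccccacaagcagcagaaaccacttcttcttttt
Cyba: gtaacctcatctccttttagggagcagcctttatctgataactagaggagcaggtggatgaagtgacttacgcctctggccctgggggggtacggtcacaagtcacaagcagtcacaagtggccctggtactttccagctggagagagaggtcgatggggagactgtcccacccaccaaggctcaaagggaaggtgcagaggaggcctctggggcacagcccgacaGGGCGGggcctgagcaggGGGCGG
Sod2: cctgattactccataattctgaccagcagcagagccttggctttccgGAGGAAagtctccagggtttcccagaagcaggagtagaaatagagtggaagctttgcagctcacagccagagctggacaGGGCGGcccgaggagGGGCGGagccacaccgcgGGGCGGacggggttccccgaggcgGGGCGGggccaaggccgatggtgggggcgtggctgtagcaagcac
The *Ncf1* window is chr5:134229626-134229875 (minus strand), with 54.4% G and C. The *Cyba* window is chr8:122432941-122433190 (minus strand), with 60.0%. The *Sod2* window is printed as chr17:13007589-13007816 (plus strand) and ends where an annotated exon begins. *Cybb* held 1 CCAAT match, starting 56 bases before the start, *Ncf1* 1 GC box at 42 bases, *Cyba* 2 at 24 and 6 bases, and *Sod2* 4 GC boxes between 124 and 67 bases, 1 GAGGAA at 203 bases and 1 CCAAT at 12 bases, which lies past the printed stretch. These are matches of letters only. In GENCODE M21 on the same assembly, *Cybb* spans chromosome X from 9435252 to 9487771, *Cyba* chromosome 8 from 122424776 to 122432930, and *Ncf1* chromosome 5 from 134220053 to 134229625. Chromosome 15 holds *Ncf4* from 78244801 to 78262580 and also *Rac2*, whose range is 78559167 to 78572783. *Sod2* spans chromosome 17 from 13006846 to 13040063. The printed windows of *Cybb* and *Sod2* lie inside these spans, so the RefSeq starts used for them differ from the GENCODE gene starts. *Ncf1* overlaps *Gtf2ird2* and *Cyba* overlaps *Gm20388*, each on the opposite strand.

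Among neutrophils, *Cybb* was concentrated in a small cluster of cells that also carried the transcripts of secondary granule proteins. Neutrophils were split into 7 clusters without using any member or listed gene. Of these, 1 with 155 WT and 221 APP/PS1 cells (2.04% and 2.31% of neutrophils) was led by *Camp*, *Ltf* and *Ngp*, whose proteins fill secondary granules, and held 13750 and 15050 CPM of *Camp*. The immunoglobulin gene *Igha* was also among its 10 leading genes. *Cybb* reached 1571 CPM there (1487 to 1658) in the WT library, while the APP/PS1 level was 1686 CPM (1619 to 1756). Its level over all other neutrophils was 87.7 and 68.3 CPM, so that the cluster was higher by 4.16 log2 in WT (4.06 to 4.27) and by 4.63 log2 in APP/PS1 (4.54 to 4.71). Only 10 of 6788 genes in WT and 13 of 7393 in APP/PS1 had a larger ratio. These few cells supplied 41.5% of all *Cybb* UMIs of WT neutrophils and 55.2% of those of APP/PS1 neutrophils, from 3.81% and 4.75% of all their UMIs.

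Within that cluster the cells were unequal. The median cell had 3 UMIs of *Cybb* in WT and 8 in APP/PS1, the 90th percentile was 26 and 25, and 41.9% and 62.4% of cells had at least 5 UMIs. After thinning, 48.4% (40.3% to 56.5%) and 61.1% (54.3% to 67.6%) of its cells had a UMI, against 8.94% and 7.45% of all neutrophils. Monocyte markers were not high there: *Csf1r*, a defining monocyte gene, was at 40.9 and 44.3 CPM in the cluster against 110.0 and 115 in all neutrophils. *Ccr2* was at 9.63 and 7.15 CPM against 12.4 and 8.79. *Ace* was about as in all neutrophils, at 6.02 and 6.43 CPM against 6.75 and 5.63. Taking the *Ccr2* and *Ace* UMIs of the cluster as monocyte RNA, 2.42% and 2.23% of its *Cybb* level would be reached.

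The other members followed *Cybb* into this cluster only in part. *Ncf1* stood at 750 CPM in WT (692 to 811) and 771 CPM in APP/PS1 (726 to 819), higher than in other neutrophils by 0.93 log2 (0.81 to 1.04) and 0.96 log2 (0.87 to 1.06). *Ncf4* was at 350 and 392 CPM, which was 0.54 log2 higher in WT (0.37 to 0.71) and 0.18 log2 higher in APP/PS1 (0.05 to 0.30). *Cyba* was at 1413 and 1457 CPM and *Rac2* at 1137 and 1218, with ratios to other neutrophils between -0.002 and 0.07 log2, and these 4 intervals held 0. *Sod2* went the other way, with 12 and 20 UMIs in all, or 14.4 and 14.3 CPM, lower than in other neutrophils by 0.85 log2 in WT (0.03 to 1.81) and by 1.42 log2 in APP/PS1 (0.79 to 2.14). Beyond 1 log2 in either direction lay 1 of 6 members in WT and 2 of 6 in APP/PS1, beside 22.5% and 25.9% of all genes. As a cluster is defined by the expression of its cells, these ratios describe it and are no test.

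**Figure D2:**
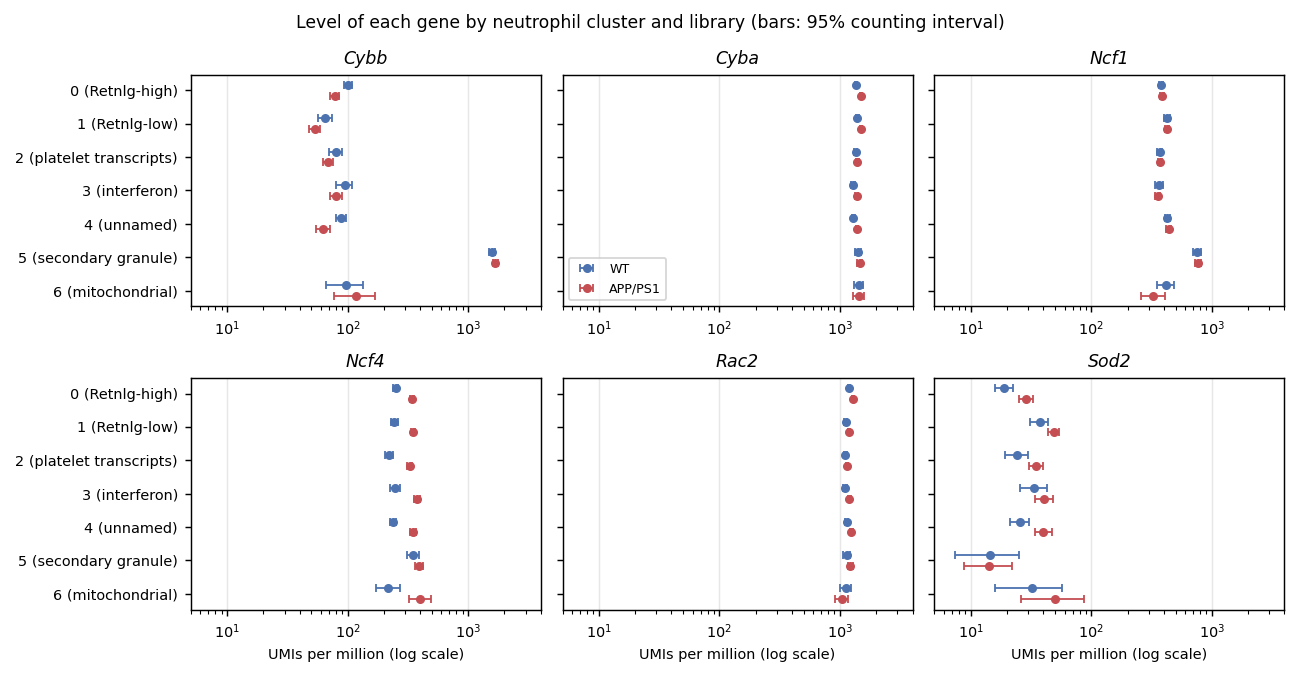
Level of each gene (x axis, CPM, log scale) in the 7 neutrophil clusters of the WT (blue) and APP/PS1 (red) library, with 95% counting intervals. *Cybb* stands at 1571 and 1686 CPM in the secondary granule cluster and at no more than 117 CPM in every other, while *Cyba* and *Rac2* are nearly level.

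The remaining 6 clusters were named by their leading markers: neutrophils high in *Retnlg* and stefins, neutrophils marked by *Clec4n* and *Icam1* and low in *Retnlg*, neutrophils carrying platelet transcripts, neutrophils with interferon-induced genes, a cluster led by mitochondrial genes, and 1 that no marker list named. Over these, *Cyba* ranged from 1280 to 1428 CPM in WT and from 1374 to 1487 in APP/PS1, a spread of 1.12-fold and 1.08-fold. *Rac2* ranged from 1105 to 1184 and from 1033 to 1276 CPM. *Ncf1* ranged from 364 to 427 and from 326 to 440 CPM. *Sod2* varied more, from 19.1 CPM in the *Retnlg*-high cells to 37.2 in the *Retnlg*-low cells of WT and from 28.7 to 48.8 in the same clusters of APP/PS1. The mitochondrial cluster of APP/PS1 reached 50.2 CPM, from 12 UMIs. The *Retnlg*-low cells were higher in *Sod2* than other neutrophils by 0.68 log2 (0.38 to 0.96) in WT and by 0.54 log2 (0.35 to 0.73) in APP/PS1. *Cybb* in these 6 clusters lay between 53.4 and 117 CPM. Between 40.5% and 80.1% of that level, and all of it in the mitochondrial cluster of APP/PS1, would be reached by monocyte RNA as judged by *Ccr2* and *Ace*. That last value rests on few UMIs, with 28 of *Cybb* in 82 cells. In the WT mitochondrial cluster the share was 46.0%.

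Few neutrophils showed all 5 oxidase genes among the members at once at this depth. With each cell thinned to 1000 UMIs, a mean of 2.01 of these 5 genes was detected per WT neutrophil and 2.11 per APP/PS1 neutrophil. In the secondary granule cluster the means were 2.65 and 2.86. All 5 genes were detected in 2.58% and 6.79% of its cells, against 0.2504% and 0.407% of all neutrophils. Classical monocytes had means of 2.20 and 2.24, and erythroid cells 0.808 and 1.27. Because *Cybb*, *Ncf1* and *Ncf4* were missed in most neutrophils at this depth, such counts do not show that a subunit is absent from a cell.

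The comparison of genotypes asks which of these genes differed between APP/PS1 and WT neutrophils. Over all neutrophils, *Ncf4* and *Sod2* were higher in the APP/PS1 library, and no other member differed by more than 0.093 log2. *Ncf4*, which binds the lipid of phagosome membranes, had 5329 UMIs in WT and 10272 in APP/PS1, a ratio of 0.51 log2 (0.46 to 0.56) or 1.43-fold. *Sod2* had 556 and 1095 UMIs, a ratio of 0.54 log2 (0.39 to 0.69) or 1.46-fold. *Cyba* was higher by 0.09 log2 (0.07 to 0.11) and *Rac2* by 0.09 log2 (0.06 to 0.11), but with TMM library sizes these ratios were 0.049 and 0.043 log2 and without abundant gene classes 0.048 and 0.042 log2. *Ncf1*, at 0.02 log2 (-0.02 to 0.06), and *Cybb*, at 0.01 log2 (-0.06 to 0.08), were equal within counting error. Beyond 0.25 log2 lay 2 of 6 members, both upwards, beside 24.4% of the 8308 genes with at least 100 UMIs. The same 2 lay just beyond 0.5 log2, beside 5.54% of genes. With TMM library sizes both were below 0.5, at 0.467 for *Ncf4* and 0.498 for *Sod2*, and without abundant gene classes they were at 0.4665 and 0.4975 log2. The ratio of *Ncf4* was above that of 97.2% of genes and the ratio of *Sod2* above that of 97.6%. Whether these differences exceed those between mice of 1 genotype was not tested.

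**Figure D3:**
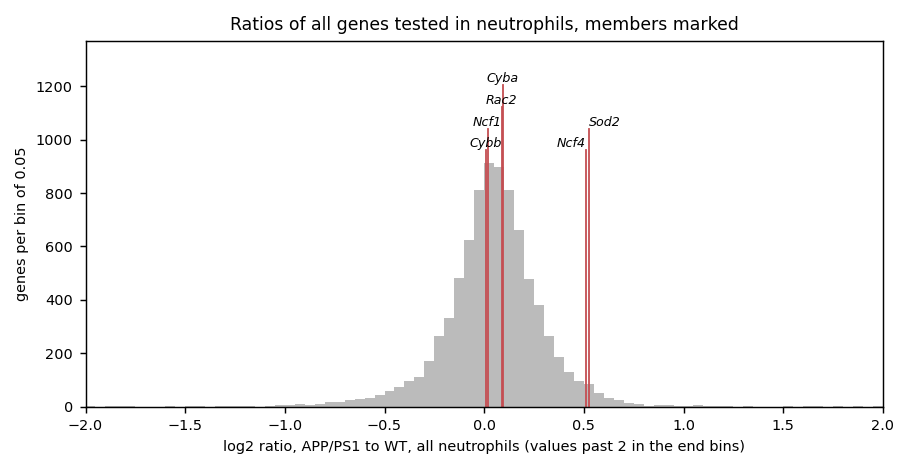
Number of genes (y axis) in bins of 0.05 by their log2 ratio of APP/PS1 to WT over all neutrophils (x axis), for 8308 genes with at least 100 UMIs; ratios were taken after adding 1 CPM, and red lines mark the members. *Ncf4* (0.51) and *Sod2* (0.53) lie in the upper tail, above 97.2% and 97.6% of genes, and the other 4 near the median of 0.05.

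The equal totals of *Cybb* concealed unlike parts. In the secondary granule cluster APP/PS1 was higher by 0.10 log2, with an interval (0.004 to 0.20) that barely excluded 0. That ratio was not recomputed with other library sizes, and TMM took the ratio over all neutrophils from 0.01 to -0.036 log2. The cluster, rich in *Cybb*, also held a larger share of all neutrophil UMIs in APP/PS1 (4.75%) than in WT (3.81%). In all other neutrophils it was lower by 0.36 log2 (0.27 to 0.45), with 1839 UMIs in WT and 1918 in APP/PS1, or 87.7 and 68.3 CPM. The ratio was below 0 in 5 of those 6 clusters, and its interval excluded 0 in 3 of them. At these low levels, free RNA moved in the same direction: the level expected from monocyte RNA was 44.9 CPM in WT neutrophils and 37.0 CPM in APP/PS1 neutrophils, and the share of classical monocytes among kept cells was 16.9% in WT and 11.55% in APP/PS1, that of nonclassical monocytes 20.35% and 12.99%. Less that RNA, the APP/PS1 level would be the lower one in each of the 5 clusters with a ratio below 0. In the mitochondrial cluster *Cybb* was at 96.2 CPM in WT and 117 in APP/PS1, from only 33 and 28 UMIs. Less that RNA, this cluster would hold 51.9 and 0.0 CPM. The *Retnlg*-high cluster would hold 59.3 CPM in WT and 46.6 in APP/PS1, and the unnamed cluster 38.1 and 37.1. The part of free RNA in the difference was not tested.

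*Ncf4* was higher in APP/PS1 in nearly all cells. The ratio was 0.45 log2 (0.36 to 0.54) in the *Retnlg*-high cluster, where the libraries held 250 and 342 CPM, and 0.61 log2 (0.45 to 0.76) in the interferon cluster, at 248 and 377 CPM. The *Retnlg*-low, platelet transcript, unnamed and mitochondrial clusters had ratios from 0.52 to 0.88 log2. In the secondary granule cluster it was 0.16 log2 and the interval (-0.05 to 0.37) held 0. None of the 5 members with at least 100 UMIs in that cluster was beyond 0.25 log2, beside 35.9% of all genes there. Outside neutrophils, *Ncf4* was higher by 0.34 log2 (0.27 to 0.41) in classical monocytes, 0.29 log2 (0.21 to 0.37) in nonclassical monocytes, 0.42 log2 in both NK and T cells, and 1.15 log2 in erythroid cells. Free neutrophil RNA would give 26.0 and 40.2 CPM of the *Ncf4* level in NK cells, 17.5 and 31.5 CPM in T cells and 45.6 and 94.1 CPM in erythroid cells, in WT and APP/PS1, and its part in these ratios was not tested. Less that RNA, T cells would hold 52.3 and 62.0 CPM, NK cells 52.6 and 65.0, and erythroid cells 14.4 and 38.8. Classical monocytes would hold 183.1 and 232.5 CPM, nonclassical monocytes 194.2 and 228.5, and B cells 128.0 and 148.6. The B cell ratio of 0.17 log2 (-0.08 to 0.42) did not exclude 0. A ratio over 0.25 log2 upwards in at least 6 of the 7 cell types was found for 1.37% of the 1391 genes comparable in all of them. This limit was set after the values of *Ncf4* were seen. No free RNA was taken off, and the count was not repeated with it removed.

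In monocytes no other member was beyond 0.25 log2. That made 1 of 6 members in each kind of monocyte, beside 19.3% of all genes in classical and 19.5% in nonclassical monocytes. *Sod2* differed by 0.08 log2 (-0.02 to 0.18) in classical and 0.22 log2 (0.13 to 0.31) in nonclassical monocytes. Within neutrophils its ratio was 0.59 log2 (0.27 to 0.92) in *Retnlg*-high cells and 0.39 log2 (0.10 to 0.69) in *Retnlg*-low cells, but in the secondary granule cluster, where 12 and 20 UMIs were counted, no difference was detectable. *Cybb* was close to equal in monocytes, at 0.06 log2 (0.04 to 0.08) and 0.03 log2 (0.01 to 0.06). *Rac2* was lower by 0.05 log2 in classical monocytes, whereas in neutrophils it was higher by 0.09 log2.

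In T cells *Cybb* was lower in APP/PS1 by 0.82 log2 (0.64 to 0.999), at 326 and 185 CPM. In these cells the monocyte markers *Csf1r*, at 116 and 72.9 CPM, and *Ace*, at 55.1 and 38.9 CPM, were lower as well, while *Ccr2*, which T cells also express, was at 205 and 227 CPM. The part of monocyte RNA in the result was not tested. In erythroid cells *Cyba*, *Ncf1*, *Ncf4* and *Rac2* were all higher in APP/PS1, by 0.46, 0.65, 1.15 and 0.56 log2. *S100a8* and *S100a9* together stood there at 18.6% of their neutrophil level in WT and 27.0% in APP/PS1, so free neutrophil RNA was higher in the same cells, and its part was not tested.

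**Figure D4:**
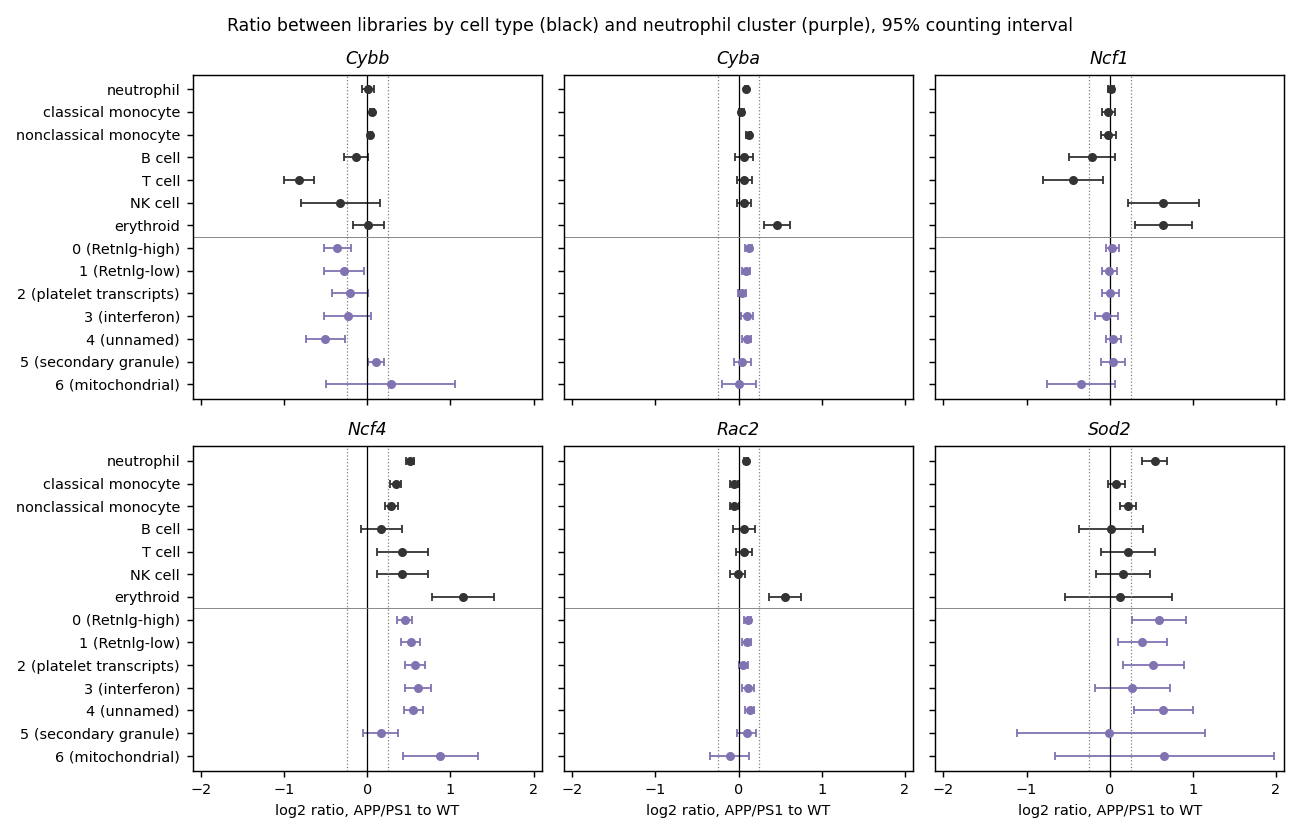
Log2 ratio of APP/PS1 to WT (x axis) for each gene in 7 cell types (black) and 7 neutrophil clusters (purple), with 95% counting intervals; dotted lines mark 0.25 either way. *Ncf4* lies to the right of 0 throughout, *Cybb* lies left of 0 in most neutrophil clusters, and *Cyba* and *Rac2* stay near 0 outside erythroid cells.

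Of other genes of the oxidase, *Rac1*, the widely expressed relative of *Rac2*, was at 427 CPM in WT and 456 in APP/PS1 neutrophils (0.09 log2, 0.06 to 0.13), and *Cybc1*, a chaperone of the membrane pair, at 33.0 and 38.9 CPM (0.24 log2). Of 6 tested genes of other subunits and assembly, none was above 0.25 log2 and 1 was below -0.25, which was the proton channel gene *Hvcn1* with 67 and 71 UMIs (-0.35 log2, -0.85 to 0.15). None of 10 tested Rac exchange factors and inhibitors passed 0.25 log2 either way. Of all genes, 15.8% were above 0.25 log2 and 8.69% below -0.25. Of 11 kinases, *Pak1* (0.53 log2, 0.31 to 0.74) and *Prkca* (0.44 log2, -0.04 to 0.94, with 56 and 103 UMIs) were above 0.25, and *Syk*, which signals from Fc receptors and integrins, was below with 404 and 329 CPM (-0.30 log2, -0.34 to -0.25). The median ratio over 41 tested genes of these lists and of the enzymes below was 0.04 log2, and that over all genes was 0.05 log2. None of the 9 genes of other NADPH oxidases reached 100 UMIs, and 7 of them had no UMI in any neutrophil.

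Enzymes that handle superoxide and peroxide mostly differed by less than *Sod2*. *Sod1*, the cytosolic dismutase, was at 29.1 and 35.1 CPM (0.27 log2, 0.13 to 0.42) and catalase, *Cat*, at 11.1 and 13.6 CPM (0.29 log2, 0.06 to 0.53). *Txnrd1*, the cytosolic thioredoxin reductase, was the only one of 14 tested genes past 0.5 log2, and it was lower in APP/PS1 with 48.9 and 31.6 CPM (-0.63 log2, -0.76 to -0.50). Of these 14 genes, 2 were above 0.25 log2 and 1 below -0.25, to be read beside the same shares of all genes. The abundant *Txn1* (2735 and 3145 CPM) and *Gpx1* (787 and 904 CPM) were each higher by 0.20 log2. *Mpo*, which uses the hydrogen peroxide to make hypochlorous acid and is transcribed in marrow precursors, had 2 UMIs in WT neutrophils and 0 in APP/PS1.

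In the secondary granule cluster the rest of the pathway did not follow *Cybb* either. *Rac1* was lower there than in other neutrophils by 0.81 log2 in WT (0.61 to 1.01) and by 0.84 log2 in APP/PS1 (0.69 to 0.99). Of 39 listed genes tested in both libraries, 2 were over 1 log2 higher in both: *Arhgdib*, which holds Rac proteins inactive in the cytosol, at 2177 and 2348 CPM against 930 and 950, and the exchange factor *Arhgef6*, at 69.8 and 55.8 CPM against 24.8 and 25.8. The 2 genes over 1 log2 lower in both were *Prex1*, an exchange factor for *Rac2*, and *Syk*. Over all genes tested in both libraries, 3.98% were that much higher and 11.2% that much lower. The peroxiredoxin gene *Prdx5* was higher by 0.71 and 0.69 log2 and the glutaredoxin gene *Glrx* by 0.75 and 1.15 log2.

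**Figure D5:**
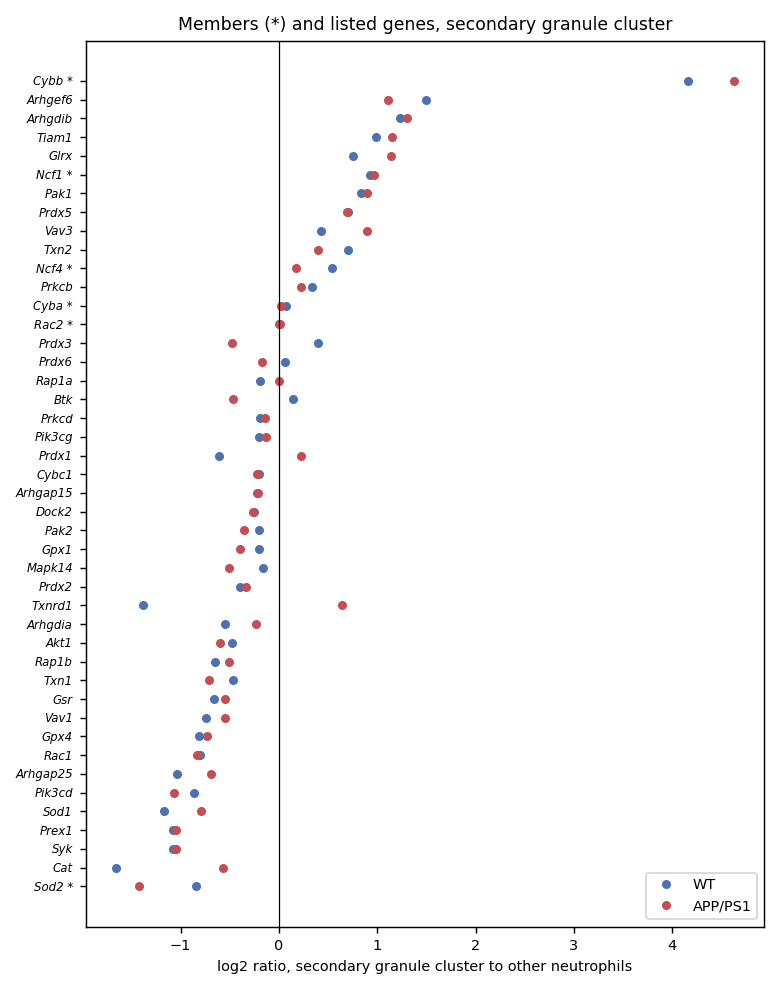
Log2 ratio of the secondary granule cluster to all other neutrophils (x axis) for each member (marked with an asterisk) and for listed genes with at least 100 neutrophil UMIs in both libraries, in WT (blue) and APP/PS1 (red). *Cybb* stands apart at 4.16 and 4.63, *Ncf1* is at 0.93 and 0.96, *Cyba* and *Rac2* are near 0, and *Sod2* is at -0.85 and -1.42.

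The members did not share 1 pattern over cell types. Among them, Pearson correlations of log2(CPM + 1) over the 18 points ran from -0.656 for *Cybb* with *Rac2* to 0.662 for *Cyba* with *Ncf4*. Of 5197 genes with a mean of at least 20 CPM, those most like *Cybb* were *Ctss* (r = 0.977), *Tlr7*, *Pld4*, *Tifa* and *Irf5*. Most like *Ncf1* were *Cyp4f18* (0.938), *Csf2rb*, *Pnpla7*, *Zfp608* and *Mboat7*, and most like *Ncf4* were *Aldh3b1* (0.921), *Lsp1*, *Pstpip2*, *Fuca1* and *Casp4*. *Cyba* was most like *Chmp3* (0.941), *Hnrnph2*, *Nckap1l*, *Sgta* and *Tmem14c*, *Rac2* was most like *Cox17* (0.929), *Vps28*, *Eif1*, *Pacs1* and *Lyrm2*, and *Sod2* was most like *Man2a1* (0.926), *Snrpb*, *Dnajc10*, *Parl* and *Rhoq*. The points of 1 cell type come from both libraries, and all share depth and free RNA with their library, so these are descriptions.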

How the data were processed

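For both libraries (10x Genomics 3′ chemistry) the authors deposited raw UMI counts per gene and cell, made per the labels with Cell Ranger 5.0.0 on mm10. The counts sum to 92458623 UMIs in WT and 84870864 in APP/PS1. The matrices were loaded in R 4.3.3 (Matrix 1.6.5) and the cells clustered with Seurat 5.3.0. A cell was kept where its genes and its UMIs lay between percentiles 5 and 95 of its own library and at most 10% of its UMIs were mitochondrial. Clustering used genes found in at least 3 cells, 2000 variable features, 15 principal components and, for all cells, resolution 0.2. Neutrophils were clustered again with anchors between libraries, raising the resolution by 0.05 until at least 6 clusters formed. The members, the listed genes and, in neutrophils, genes that differed by over 0.5 log2 between libraries were left out of the features.

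A cluster took the name of the marker list with the highest mean log2 ratio, with at least 3 markers over 1 log2. Platelet markers named a cluster only where no other list had a mean of 0.5. This rule was written after the clusters had been seen, and 32 platelet cells were left out. Members, gene lists and markers were chosen with earlier results of these data known. Listed genes without values in the text are counted with their list. The genes named are the members, the listed genes and the 5 genes most like each member over cell types.

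Scrublet, run through scanpy 1.11.5 at an expected rate of 8%, scored doublets. Its threshold called no cell in APP/PS1, so that of WT (0.217) was used for both, which called 9.04% and 7.29% of cells. They stayed in and were removed in an alternative.

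UMIs were summed per cell type and library. Levels carry exact Poisson intervals, ratios exact conditional binomial intervals and shares Clopper-Pearson intervals (scipy 1.17.1), all at the 95% level and for counting error only. Ratios between libraries were taken where each had at least 50 cells of a kind, and members were ranked among genes of at least 100 UMIs. The intervals were tested on simulated data. The settings varied were the cell filters, doublets, features, components, resolution, integration, library size (edgeR 4.0.16 TMM, or totals less abundant gene classes), means over cells, thinning and free RNA. Removal of monocyte RNA, and leaving out the secondary granule cluster, were added after seeing the data. Monocyte RNA was set by solving for the amounts of classical and nonclassical monocyte RNA that give the *Ccr2* and *Ace* levels of a cluster.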

Additional observations from a re-analysis of the deposited data

Results flagged for a closer look

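*Ncf1* differed between libraries in opposite directions in different cell types, each beyond 0.25 log2 with a counting interval that excluded 0. It was higher in APP/PS1 in NK cells by 0.64 log2 (0.22 to 1.07, 66 and 178 UMIs) and in erythroid cells by 0.65 log2 (0.30 to 0.99, 163 and 131 UMIs), and it was lower in T cells, with a ratio of -0.44 log2 (-0.80 to -0.08, 146 and 117 UMIs). The difference between these ratios was not tested. Free neutrophil RNA, set by *S100a8* and *S100a9*, would give 109.5% of the *Ncf1* level in WT NK cells and 77.3% in APP/PS1, 90.2% and 84.6% in erythroid cells, and 42.2% and 73.0% in T cells.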

How the results depend on the processing

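The ratios of APP/PS1 to WT over all neutrophils kept their direction under all 12 alternatives for *Ncf4* (0.47 to 0.53 log2), *Sod2* (0.50 to 0.60), *Cyba* (0.05 to 0.10) and *Rac2* (0.04 to 0.10). TMM library sizes gave 0.049 for *Cyba*, 0.043 for *Rac2* and -0.027 for *Ncf1*. Library sizes without abundant gene classes gave 0.048 for *Cyba*, 0.042 for *Rac2* and -0.028 for *Ncf1*. *Cybb*, at 0.01 over all neutrophils, was at -0.10 as a mean over cells, at -0.13 in thinned cells, at 0.12 less monocyte RNA and at -0.36 without the secondary granule cluster, which supplied 41.5% and 55.2% of its UMIs. The last 2 settings were chosen after seeing the data. *Cybb* kept its direction in 7 of 12 alternatives and *Ncf1* in 10. For the other changes the cause was not tested. With both libraries together, the ratios of the secondary granule cluster to other neutrophils kept their direction under 5 alternatives, except for *Rac2* (-0.007 to 0.013). Those for *Cybb* ran from 4.37 to 4.68. Between neutrophils and classical monocytes each ratio kept its direction under 3 alternatives, although 11 of 18 values moved beyond their counting interval.

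No paired analysis was possible because each genotype has 1 library. For the same reason leaving out a library gives no value, and the spread between mice was not measured. Depth limits *Sod2* in the secondary granule cluster and every member in basophils and plasma cells, which had fewer than 50 cells in a library.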

Other observations

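*Ncf4* and *Rac2* lie on the same stretch of chromosome 15. Of 12 other genes within 500 kb of *Ncf4* that had at least 100 UMIs in neutrophils, 1 was above 0.25 log2 in the ratio of APP/PS1 to WT and 1 below -0.25, with a range from -0.26 to 0.26 and a median of -0.07, beside 0.51 for *Ncf4* itself. Around *Sod2*, 5 such genes ranged from 0.02 to 0.30 log2, with 1 above 0.25. Both genes were chosen for this look after their ratios had been seen.

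B cells held more *Cybb* than NK cells, T cells and neutrophils. The level was 468 CPM in WT and 426 in APP/PS1, and the ratio between libraries was -0.14 log2 (-0.28 to 0.01). After thinning, 34.9% (29.5% to 40.5%) and 26.4% (21.5% to 31.7%) of B cells had a UMI. Erythroid cells had 17.7% (13.25% to 22.9%) and 17.9% (11.9% to 25.2%), so the APP/PS1 intervals overlapped. Erythroid cells also held more *Ccr2* and *Ace* than B cells in both libraries, so they give no background for *Cybb* here. Monocyte markers in B cells stood at 60.0 and 35.5 CPM for *Csf1r* (110.0 and 115 in neutrophils), 37.0 and 5.47 CPM for *Ccr2* (12.4 and 8.79) and 24.2 and 8.20 CPM for *Ace* (6.75 and 5.63), and the part of monocyte RNA was not tested.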
